A study of Mus musculus with 6 samples.

Results

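Aminoacyl-tRNA synthetases, the enzymes that load each tRNA with its amino acid, were followed through 36 gene symbols, 20 of the cytosolic set and 16 of the mitochondrial set. The members were taken by name: a mitochondrial enzyme is one whose symbol ends in 2, and every other symbol is cytosolic. For 35 of the 36, probe sets carried that symbol and no other, out of 20416 genes named in this way on the array. Dars was not analysed here, as no probe set was listed under its symbol alone. The 35 genes were covered by 390 cytosolic and 234 mitochondrial probe sets, from 33 each for Eprs and Lars down to 2 for Pars2. All 35 passed the filter on dim genes, which left 14291 genes for testing.

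RNA came from C2C12, an established line of mouse myoblasts, whose cultures therefore share one origin. Cells had been grown in 10% fetal bovine serum, moved to 2% horse serum to fuse, and taken as myotubes on days 4 to 7. The 3 insulin cultures received 100 nM insulin for 48 h, to make them insulin resistant per the labels, and the 3 control cultures received none. Medium was replaced every 24 h, and 25 ng of total RNA per culture was amplified before hybridization. Each value is a log2 signal after RMA, an array method that equalizes the arrays, so a change is relative to other transcripts on the array. A change of 1 is a doubling, and SE is the standard error of the limma fit. Signals of different genes depend on their probes and are not set against each other.

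Array medians lay between 8.79 and 8.82 and correlations between arrays between 0.977 and 0.990. The labelled cell type was checked against the filter level of 7.05. The dimmest of 11 myotube markers averaged 10.94. Of 10 markers of blood, endothelial, fat, epithelial, liver and glial cells, 6 fell below that level. The other 4 lay above it, up to 9.09 for Krt8, so absence of such cells was not shown. Myotube markers and proliferation markers both moved with insulin, while of all tested genes 9.56% rose and 6.35% fell. Of 11 myotube markers 4 fell and none rose, and their mean ran from 13.05 to 13.17 on control arrays and from 12.82 to 12.85 on insulin arrays. Of 11 measured proliferation markers 10 rose and none fell, and their mean ran from 11.07 to 11.12 on control arrays and from 11.64 to 11.70 on insulin arrays. In bulk RNA, fewer cells of a type and less RNA per cell cannot be told apart. The part of either shift in the synthetase results was not tested.

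Each synthetase joins one amino acid to its tRNAs, using ATP, before the ribosome can use it. Mammalian cells hold separate nuclear genes for cytosolic and mitochondrial enzymes, and the mitochondrial ones are imported to serve the few proteins made inside the organelle. Gars and Kars serve both places from a single gene, and Eprs is a fusion that charges both glutamate and proline tRNAs. When charged tRNA runs short, uncharged tRNA activates the kinase GCN2, which raises translation of the transcription factor ATF4, and several cytosolic synthetase genes are textbook ATF4 targets. Muscle makes and breaks down much protein, and insulin promotes its protein synthesis.

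Of 19 measured cytosolic synthetases 8 rose by limma (42.1%), none fell and 11 did not pass a Benjamini-Hochberg adjusted p of 0.05. Of 16 mitochondrial ones 2 rose (12.5%), none fell and 14 did not pass. Among all tested genes 9.56% rose and 6.35% fell. The median change was 0.25 for cytosolic members, or 1.19-fold, 0.037 for mitochondrial members and -0.0028 for all tested genes. The estimate was above 0 for 19 of 19 cytosolic and 11 of 16 mitochondrial members. The cytosolic share called lay well above the share over all genes, while the mitochondrial share lay near it.

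**Figure D1:**
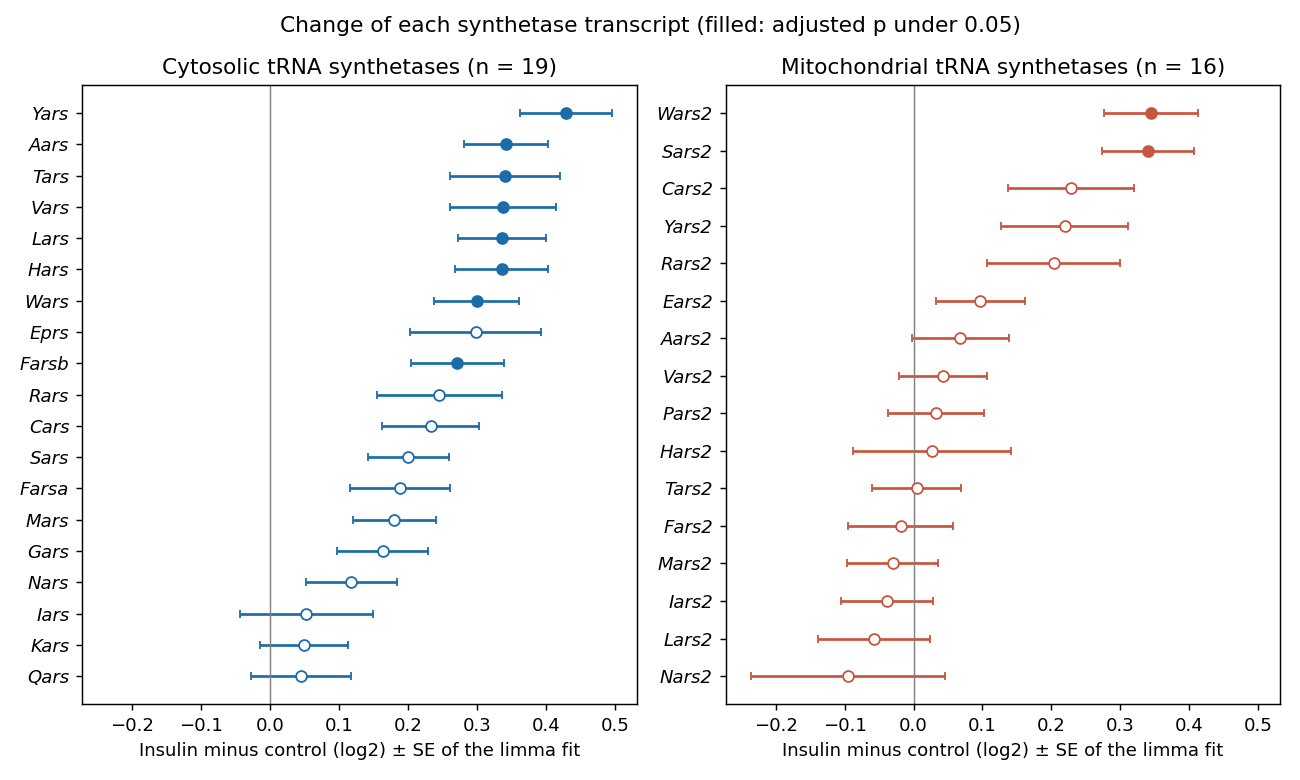
Change of each measured synthetase after insulin on the log2 scale (x axis), with the SE of the limma fit over 3 insulin and 3 control arrays as bars; filled points passed an adjusted p of 0.05. All 19 cytosolic points lie right of 0, from 0.045 for Qars to 0.43 for Yars, while 14 of the 16 mitochondrial ones are open and centre near 0.

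Yars, the tyrosine enzyme, changed most. Its values were 11.44, 11.47 and 11.54 on the control arrays and 11.90, 11.98 and 11.86 on the insulin arrays. The insulin arrays all lay above the controls, and the rise was 0.43 ± 0.07 (SE), or 1.35-fold (limma adjusted p = 0.00536). Aars, which charges alanine and clears mischarged tRNA, stood at 12.21, 12.17 and 12.16 in controls and at 12.48, 12.56 and 12.52 with insulin. It rose by 0.34 ± 0.06 (SE; limma adjusted p = 0.00897), and the gap between the groups was many times the spread within either. Yars and Aars were also the cytosolic members called whichever single array was left out.

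Tars, the threonine enzyme, lay at 12.13, 12.06 and 11.90 in controls and at 12.35, 12.45 and 12.32 with insulin. The rise was 0.34 ± 0.08 (SE; limma adjusted p = 0.0252), and control 3 was the lowest array. Vars, the valine enzyme, which binds elongation factor 1, lay at 11.10, 11.22 and 11.05 in controls and at 11.37, 11.46 and 11.55 with insulin. It rose by 0.34 ± 0.08 (SE; adjusted p = 0.0228 by limma), with groups that did not overlap.

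Hars, the histidine enzyme and a known autoantigen in muscle inflammation, stood at 11.12, 11.23 and 11.21 in controls and at 11.49, 11.60 and 11.49 with insulin, a rise of 0.34 ± 0.07 (SE; limma adjusted p = 0.0143). Lars, the leucine enzyme, which also takes part in leucine sensing by mTORC1, stood at 11.82, 11.73 and 11.84 in controls and at 12.12, 12.16 and 12.11 with insulin. Lars rose by 0.34 ± 0.06 (SE; limma adjusted p = 0.0117). In both genes the 3 insulin values lay above every control. The SD of the insulin and control arrays was 0.061 and 0.059 in Hars, and 0.029 and 0.060 in Lars.

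Wars, the tryptophan enzyme, otherwise known as an interferon-induced gene, was at 11.63, 11.54 and 11.55 in controls and at 11.86, 11.90 and 11.86 with insulin. The rise was 0.30 ± 0.06 (SE; limma adjusted p = 0.0161). Farsb, the beta subunit of the phenylalanine enzyme, was at 11.14, 11.17 and 11.17 in controls and at 11.37, 11.40 and 11.53 with insulin. It rose by 0.27 ± 0.07 (SE; limma adjusted p = 0.0309), the smallest rise and the weakest call among the 8. Its partner Farsa, the alpha subunit, had values of 11.96, 11.96 and 11.95 in controls and 12.03, 12.17 and 12.24 with insulin, a change of 0.19 ± 0.07 that did not pass (adjusted p = 0.123 by limma). The difference between the subunits was not tested.

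The 11 cytosolic members that did not pass had estimates from 0.045 to 0.30, with a median of 0.18. Of these, 8 had all 3 insulin arrays above all 3 controls. Sars (serine, 0.20 ± 0.06), Cars (cysteine, 0.23 ± 0.07) and Eprs (0.30 ± 0.10) lay just short of the threshold, with limma adjusted p of 0.0549, 0.0616 and 0.0729. Eprs was held back by control 1, at 12.54 against 12.22 and 12.23 for the other controls, while its insulin arrays were at 12.65, 12.58 and 12.65. Mars (methionine), Rars (arginine) and Nars (asparagine) had changes of 0.18 ± 0.06, 0.25 ± 0.09 and 0.12 ± 0.07. In all, 16 of 19 cytosolic members had non-overlapping groups with insulin higher, as did 20.0% of all tested genes. The mitochondrial count was 4 of 16: Sars2, Wars2, Rars2 and Ears2.

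The groups overlapped in Iars, Kars and Qars. Iars, the isoleucine enzyme, was at 12.39, 12.09 and 12.10 in controls and at 12.33, 12.22 and 12.18 with insulin, where again control 1 stood above the other controls (change 0.053 ± 0.097). Qars, the glutamine enzyme, was at 12.17, 12.19 and 12.29 in controls and at 12.20, 12.22 and 12.36 with insulin (0.045 ± 0.072). Each of these changes was smaller than its SE.

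The dual-purpose genes stood in the lower part of the cytosolic range. Gars, the glycine enzyme, known from inherited neuropathy, had values of 12.91, 12.83 and 12.82 in controls and 13.05, 12.94 and 13.05 with insulin, a change of 0.16 ± 0.07 (limma adjusted p = 0.141). Kars, the lysine enzyme, had 12.34, 12.44 and 12.41 in controls and 12.40, 12.48 and 12.46 with insulin, a change of 0.050 ± 0.064 (limma adjusted p = 0.660). Neither passed. Without these genes 8 of 17 cytosolic members rose, with a median change of 0.27.

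**Figure D2:**
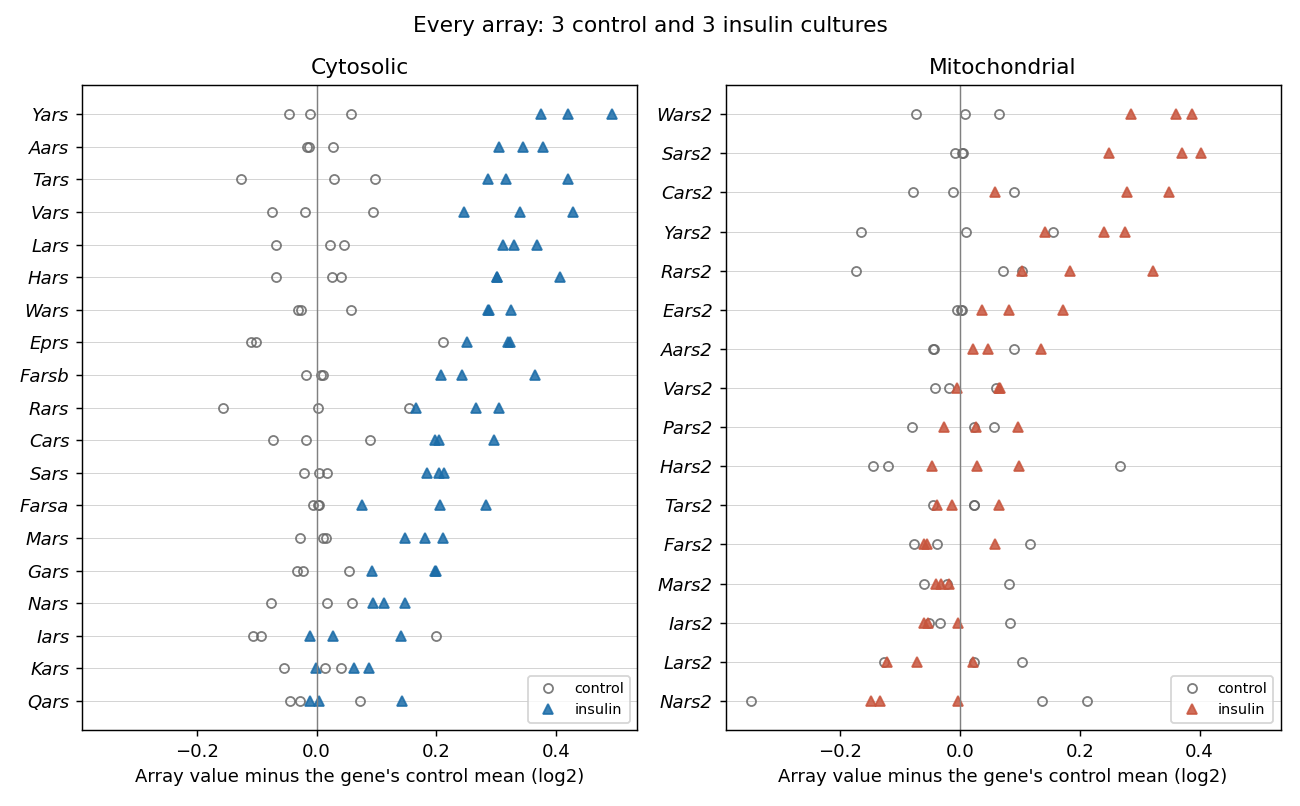
Values of the 6 arrays for each synthetase, as the log2 value minus the mean of the 3 controls of that gene (x axis); open circles are control arrays and triangles insulin arrays. The triangles are clear of the circles in 16 of 19 cytosolic genes and in 4 of 16 mitochondrial ones.

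Promoters are shown to set their letters beside the shared rise. They are those of the called members with the largest changes among members whose entry in RefSeq's promoter table was used. Printed are the 120 bases before the annotated start on the gene's strand, in build GRCm38.p6. Capitals mark the letters TGATGNAA or, on the other strand, TTNCATCA, the shared part of the C/EBP-ATF response element to which ATF4 dimers bind. The stretches lie at chr4:129189783-129189902 (Yars, plus strand), chr8:111033722-111033841 (Aars, plus), chr15:11399659-11399778 (Tars, minus), chr1:78488898-78489017 (Farsb, minus), chr7:28741848-28741967 (Sars2, plus) and chr3:99140970-99141089 (Wars2, plus).
Yars: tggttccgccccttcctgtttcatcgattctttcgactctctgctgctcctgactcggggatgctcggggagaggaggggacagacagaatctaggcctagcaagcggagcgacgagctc
Aars: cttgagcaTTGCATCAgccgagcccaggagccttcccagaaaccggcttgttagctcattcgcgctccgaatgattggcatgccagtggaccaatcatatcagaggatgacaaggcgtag
Tars: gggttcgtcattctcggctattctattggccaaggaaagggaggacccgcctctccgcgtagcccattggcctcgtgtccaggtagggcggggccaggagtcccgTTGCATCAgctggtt
Farsb: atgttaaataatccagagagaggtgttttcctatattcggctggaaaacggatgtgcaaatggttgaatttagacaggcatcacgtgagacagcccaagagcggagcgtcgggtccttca
Sars2: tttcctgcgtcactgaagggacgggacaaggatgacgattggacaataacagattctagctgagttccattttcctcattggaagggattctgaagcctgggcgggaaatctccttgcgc
Wars2: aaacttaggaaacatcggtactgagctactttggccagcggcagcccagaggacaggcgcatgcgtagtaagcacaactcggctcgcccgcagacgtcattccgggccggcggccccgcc

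The same letters were searched on both strands in the whole table window, 250 bases before to 50 after the start. They occurred in 5 of the 12 measured cytosolic members with an entry used (41.7%) and in 0 of 14 such mitochondrial members. Of the 32851 promoter entries searched, 3.97% held them. A member counted once if any of its entries matched, while the last share counts every searched entry singly. No entry was used for Cars, Hars, Lars, Nars, Rars, Vars, Wars, Hars2 and Pars2, so their promoters were not searched. Of the 5 genes Yars, Aars and Tars rose, while Gars and Iars did not pass, so a match and a rise did not always go together. Farsb rose and holds no match in its window. The matches outside the stretches above are given here with 11 bases on either side, since 3 of them lie just past the start. They are at chr4:129189895-129189924 (Yars, plus strand, from base 4 of the transcript), chr8:111033840-111033869 (Aars, plus, from base 10), chr13:49682126-49682155 (Iars, plus, from base 8) and chr6:55037960-55037989 (Gars, plus, from 30 bases before the start).
Yars: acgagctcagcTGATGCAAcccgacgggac
Aars: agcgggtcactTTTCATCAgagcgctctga
Iars: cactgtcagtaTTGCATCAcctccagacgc
Gars: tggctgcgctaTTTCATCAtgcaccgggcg
The match upstream in Aars begins 112 bases before the start and that of Tars 15 bases before it. Yars, Aars (upstream), Tars and Iars carry the same 8 letters, TTGCATCA or its reverse complement TGATGCAA. A match is a description of letters, and no binding was measured.

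Among mitochondrial enzymes Sars2 and Wars2 passed. Sars2, the mitochondrial serine enzyme, was at 8.79, 8.80 and 8.80 in controls and at 9.17, 9.05 and 9.20 with insulin. It rose by 0.34 ± 0.07 (SE), or 1.27-fold (limma adjusted p = 0.0130), with nearly identical controls. Wars2, the mitochondrial tryptophan enzyme, was at 8.54, 8.45 and 8.59 in controls and at 8.89, 8.91 and 8.81 with insulin, a rise of 0.34 ± 0.07 (limma adjusted p = 0.0133). The Wars2 value turned on how its probe sets were combined. It was called from the median of 7 probe sets, of which 4 went up, and its brightest probe set gave -0.030 (limma adjusted p = 0.872).

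The 14 other mitochondrial members had estimates from -0.095 to 0.23. The 3 highest were Cars2 (0.23 ± 0.09, limma adjusted p = 0.138), Yars2 (0.22 ± 0.09) and Rars2 (0.20 ± 0.10). In Cars2 and Yars2 the groups overlapped by 1 array, and in Rars2 insulin 1, at 10.267, barely cleared control 3, at 10.266. Ears2, the glutamate enzyme, had tight controls at 8.30, 8.29 and 8.30 and insulin values of 8.47, 8.38 and 8.33 (0.097 ± 0.065).

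The estimates of the other 10 mitochondrial members lay within 0.1 of no change. Aars2 (alanine) and Vars2 (valine) had estimates of 0.068 ± 0.071 and 0.042 ± 0.064. Pars2 (proline) had 0.032 ± 0.070 and Hars2 (histidine) 0.027 ± 0.114. Tars2 (threonine) had 0.0045 ± 0.0642 and Fars2, a single-chain phenylalanine enzyme, -0.019 ± 0.077. Mars2 (methionine), Iars2 (isoleucine), Lars2 (leucine) and Nars2 (asparagine) had -0.030 ± 0.066, -0.039 ± 0.067, -0.057 ± 0.081 and -0.095 ± 0.141. The estimate for Nars2 was the least certain of the 35: control 1 was at 8.99 and the other controls at 9.56 and 9.48, with insulin at 9.21, 9.34 and 9.19.

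Pairs of enzymes for the same amino acid were compared next. The cytosolic change exceeded the mitochondrial one in 15 of 17 pairs. The pairs are not all separate, as Eprs is paired with both Ears2 and Pars2, and Fars2 with both Farsa and Farsb. The widest gap was for leucine, where Lars exceeded Lars2 by 0.39, followed by threonine at 0.34 (Tars and Tars2), histidine at 0.31 and valine at 0.30. Both phenylalanine subunits exceeded Fars2, Farsb by 0.29 and Farsa by 0.21, and Aars exceeded Aars2 by 0.27. The difference was tested within arrays by an exact two-sided permutation test, whose smallest possible p with 3 against 3 arrays is 0.1. That p was reached in 10 pairs, in 9 of them with the cytosolic gene ahead, and the Benjamini-Hochberg adjusted value over the 17 pairs was 0.17. This test cannot pass 0.05 with 3 against 3 arrays, so it makes no call for any pair.

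Serine and tryptophan were the exceptions among the pairs. Sars2 exceeded Sars by 0.14, the one case in the other direction that reached the smallest exact permutation p. For tryptophan both genes rose, with a difference of -0.045 (exact permutation p = 0.4), which turned to 0.26 with the mean of probe sets. For cysteine and arginine the differences were 0.0043 (exact p = 1) and 0.042 (exact p = 0.8). Hars and Hars2 are next to each other in RefSeq's annotation, where Hars rose and Hars2 did not pass.

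**Figure D3:**
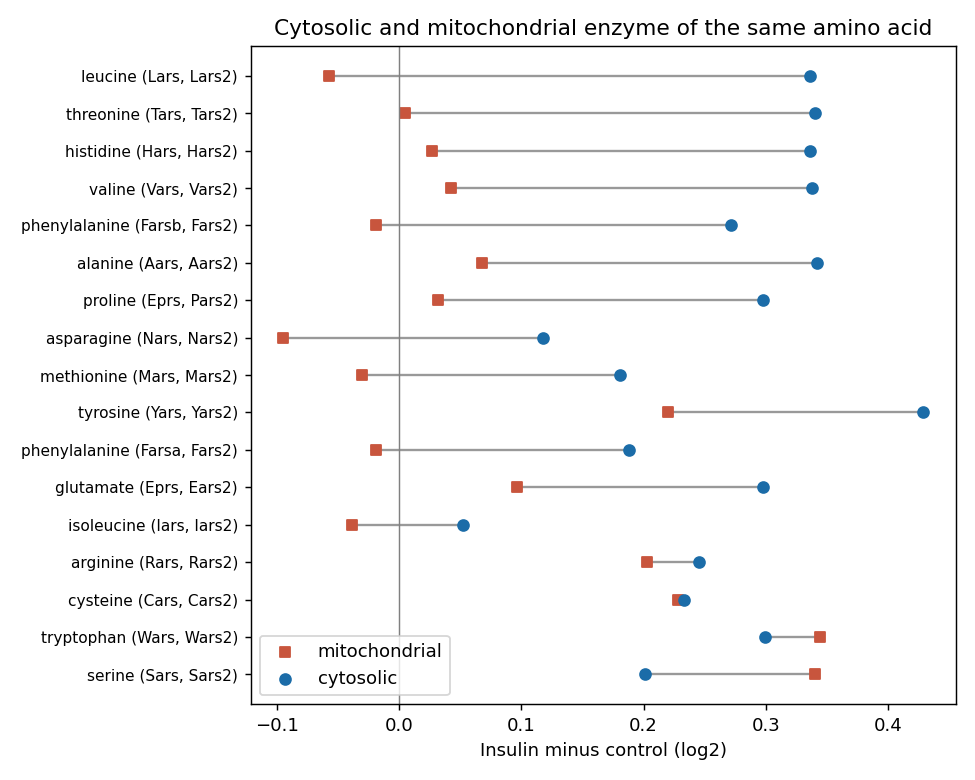
Change after insulin (log2, x axis) of the cytosolic (circles) and mitochondrial (squares) enzyme for each amino acid, ordered by their difference. The circle lies to the right in 15 of 17 pairs, by up to 0.39 for leucine, and to the left for tryptophan and serine.

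Averaged per array, the 19 cytosolic members stood at 12.04, 12.00 and 12.01 in controls and at 12.22, 12.27 and 12.26 with insulin. The 16 mitochondrial members stood at 9.50, 9.57 and 9.61 in controls and at 9.62, 9.66 and 9.65 with insulin. The cytosolic groups were well apart, while the mitochondrial groups were separated by a narrow margin, with control 1 lowest. The cytosolic mean minus the mitochondrial mean went from 2.45 ± 0.08 to 2.60 ± 0.0018 (SD, n = 3), a shift of 0.15. Only the shift can be read, as the offset depends on the probes.

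**Figure D4:**
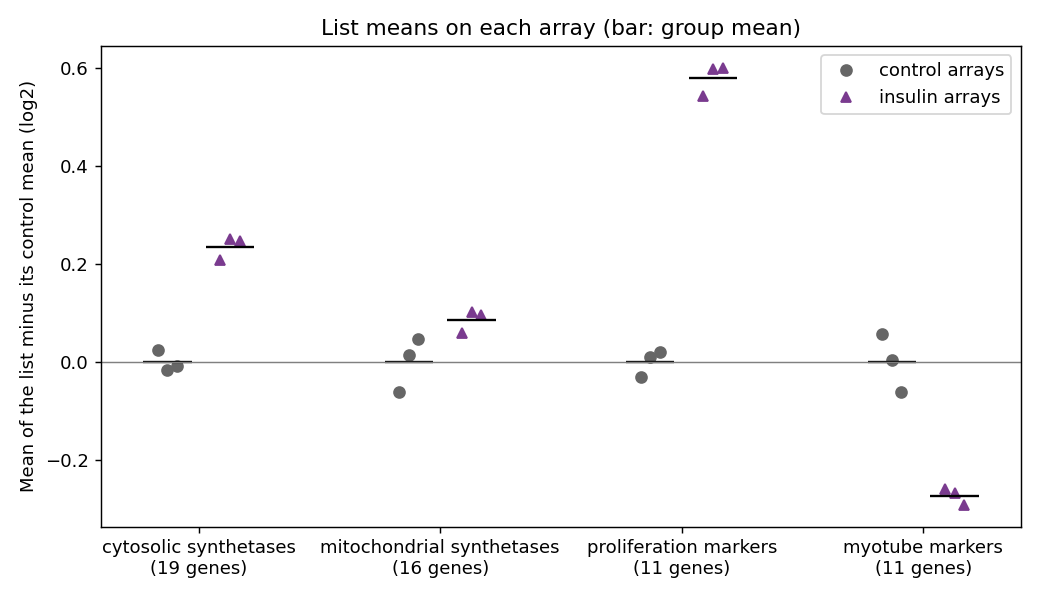
Mean of each gene list on every array, minus the list's control mean (log2, y axis); circles are the 3 control and triangles the 3 insulin arrays, and bars are group means. The shift was 0.24 for cytosolic synthetases, 0.085 for mitochondrial ones, 0.58 for proliferation markers and -0.27 for myotube markers.

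The probe sets, each reading a short stretch of a transcript, were examined one by one. Of 390 cytosolic probe sets 359 went up (92.1%), against 154 of 234 mitochondrial ones (65.8%) and 48.7% of all probe sets. Fitted singly by limma, 42 of 381 cytosolic probe sets rose (11.0%), 5 of 219 mitochondrial ones rose (2.28%), and none of either fell, against 3.95% called higher of all tested probe sets. In Cars, Hars, Wars and Yars every probe set went up.

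Single probe sets also departed from their gene. In Vars 11 of 29 tested probe sets were called higher, in Yars 6 of 15 and in Tars 5 of 19, though the probe sets of Tars ranged from -0.83 to 1.23. One Kars probe set was called, at 0.76, while the median of the 16 was 0.044. In Farsb 20 of 21 went up and 1 stood at -1.18. In Iars 24 of 26 went up, with a median of 0.15 against a gene estimate of 0.053, and the lowest stood at -0.78. Sars2 had 14 of 15 going up, with a median of 0.32. Vars2 was split evenly, 15 of 30 going up, although 2 of its probe sets were called higher, and in Lars2 7 of 22 went up. Other mitochondrial genes had most probe sets going up without passing: Rars2 18 of 20, Tars2 16 of 18 and Cars2 15 of 16. For Tars2 the median of these changes was 0.11, against a gene estimate of 0.0045 from the median of the values on each array, and the mean of its probe sets gave 0.11.

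**Figure D5:**
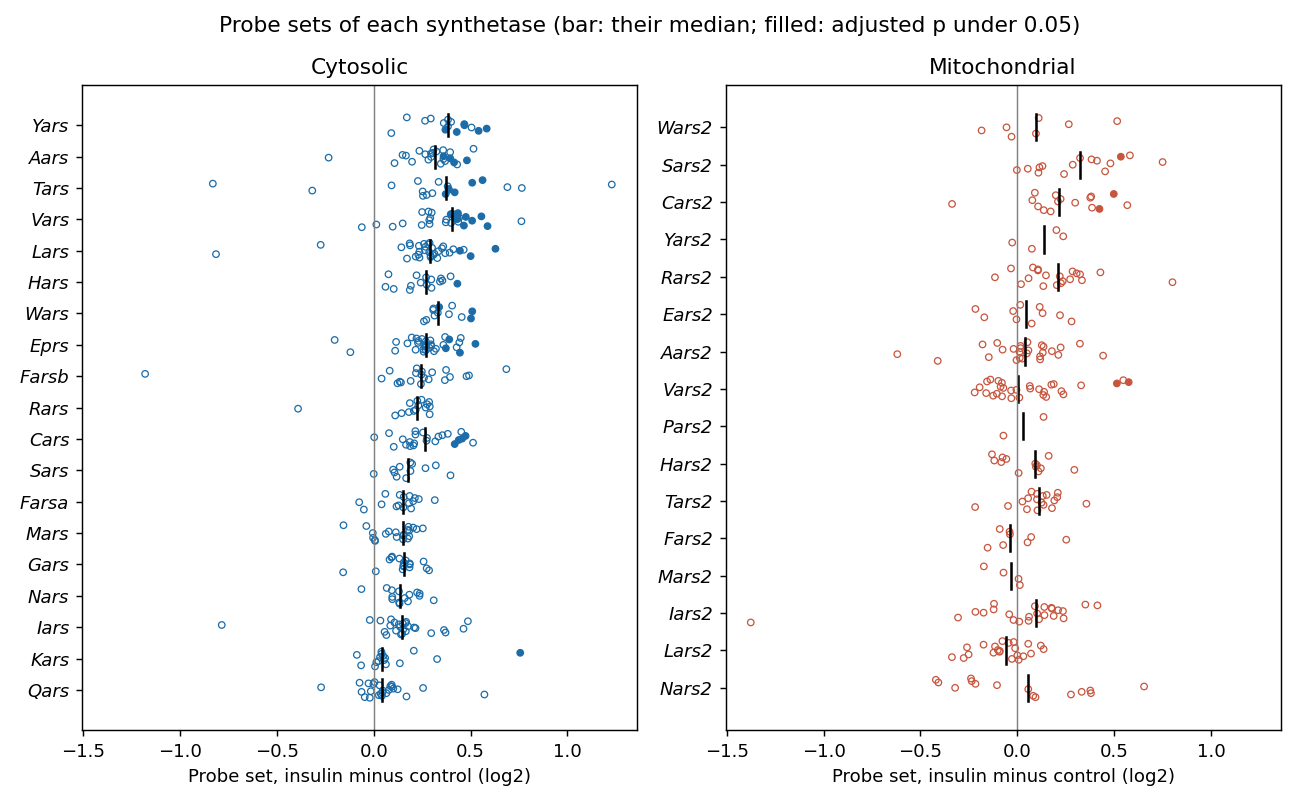
Change of every probe set (points, log2, x axis) of each synthetase, with the median of the gene's probe sets as a bar; filled points passed an adjusted p of 0.05. Cytosolic points lie mostly right of 0 (359 of 390), and mitochondrial points are spread around it.

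Calls were also counted by brightness. The dimmest cytosolic member averaged 11.29, and every mitochondrial member was dimmer on its own probes, which says nothing of transcript levels. Of the 2661 tested genes at or above 11.29, 8.27% rose, and of the 11630 below it 9.85% rose. The typical SE was alike, with a median of 0.067 for cytosolic and 0.070 for mitochondrial members.

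Many mammalian synthetases travel in the multisynthetase complex, which holds Dars, Eprs, Iars, Kars, Lars, Mars, Qars and Rars. This grouping, made after the values were seen, has no test. Of its 7 measured members 1 rose (Lars, 14.3%), and the median change was 0.18. In 4 of the 7 the insulin arrays lay above the controls. Of 12 cytosolic members outside the complex 7 rose (58.3%), with a median of 0.29, and in 12 of 12 the insulin arrays lay above the controls. Among all tested genes 9.56% rose, and in 20.0% the insulin arrays lay above the controls. The complex's scaffold genes Aimp1, Aimp2 and Eef1e1 (AIMP3) had changes of 0.041, 0.21 and 0.12, none of which passed. In a list of 9 scaffold and editing genes none passed by limma, against 9.56% of all tested genes called higher. In the same list 2 had an unadjusted limma p under 0.05, as did 4272 of the 14291 tested genes. Aarsd1, an alanyl-tRNA editing enzyme, was highest at 0.29 ± 0.09 (limma adjusted p = 0.0611, or 0.0416 with the replicate number as a block).

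Of 11 measured partners of mitochondrial charging 2 rose (18.2%, against 9.56% of all tested genes), none fell and 9 did not pass, with a median of 0.16. Gatc rose by 0.40 ± 0.07 (SE; limma adjusted p = 0.00623). It encodes a subunit of the amidotransferase that makes glutaminyl-tRNA in mitochondria, which lack a glutamine enzyme of their own. The other subunits had 0.24 ± 0.08 (Qrsl1) and 0.10 ± 0.11 (Pet112l, now Gatb) and did not pass. Pus1, which makes pseudouridine in tRNA, rose by 0.37 ± 0.06 (limma adjusted p = 0.00601).

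Of 32 tested genes of tRNA maturation and export 11 rose (34.4%, against 9.56% of all tested genes), none fell and 21 did not pass, with a median of 0.22. Mettl1, the tRNA guanosine methyltransferase, rose by 0.65 ± 0.06 and Pop1, a subunit of RNase P, which trims the tRNA 5′ end, by 0.72 ± 0.07. Qtrtd1 (now Qtrt2), a subunit of the enzyme that inserts queuine, rose by 0.64 ± 0.07. Limma adjusted p for these lay between 7.21e-04 and 0.00124.

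In the list of GCN2 and eIF2 signalling 8 of 26 members rose (30.8%, against 9.56% of all tested genes). None fell and 18 did not pass, with a median of 0.16. Among the 8 were Trib3, Ddit3, Myd116 and Atf4, and none was an eIF2 kinase, an eIF2 subunit or an eIF2B subunit. Eif2ak4, encoding GCN2, had a change of 0.31 ± 0.10 and did not pass (limma adjusted p = 0.0747), though it did with array weights (0.0033), the mean of its probe sets (0.0082) or control 3 left out (0.0457). Its activator Gcn1l1 (now Gcn1) had 0.050 ± 0.081. Myd116 (now Ppp1r15a), the phosphatase subunit GADD34 that reverses eIF2 phosphorylation, rose by 0.83 ± 0.11 (limma adjusted p = 0.00248). Trib3 and Ddit3 rose by 1.81 and 1.83, and Atf4 by 0.35, about as much as Aars. The Atf4 call (limma adjusted p = 0.0195) did not hold when control 2 or any 1 of the 3 insulin arrays was dropped, at 0.0596 to 0.0743. Phosphorylation and translation, by which this pathway acts, were not measured.

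The count of cytosolic calls depended on the processing. It was 2 of 19 with only the brightest probe set of each gene, 13 with an intensity trend and robust prior, and 15 with array weights. In these settings 6.42%, 11.1% and 18.2% of all tested genes rose. When control 2 was dropped the cytosolic count was 4 and the mitochondrial count 1. Dropping insulin 1 gave 5 and 0, dropping insulin 2 gave 2 and 1, and dropping insulin 3 gave 4 and 1. Of all tested genes 5.66% rose without control 2, and 5.63%, 4.64% and 4.94% without insulin 1, 2 and 3. Nars2 was called lower under array weights (-0.27) and with its brightest probe set (-0.42), and the mean of its probe sets gave 0.021. Farsb kept its call in 1 of these 6 omissions of 1 array, Tars and Wars in 2, Wars2 in 3 and Sars2 in 4. The median of the cytosolic members stayed between 0.15 and 0.29 in all 16 alternatives. That of the mitochondrial members stayed between -0.0077 and 0.066. The replicate block and the intensity trend cannot change these medians.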

How the data were processed

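The deposited log2 signals, 1 for each probe set, come from the authors' RMA run, per the submitters' processing notes (version not given). That the logarithm has base 2 was inferred from their range, 3.15 to 14.6. Of 241576 probe sets, 212097 had exactly 1 symbol in GEO's platform annotation of old symbols, 4475 had several and 25004 none, and only the first kind was used. Probe sets of a gene were combined by their median, array by array. Genes with a mean under the 30th percentile (7.05) were left out. Insulin minus control was fitted over all genes with limma 3.58.1 (lmFit, eBayes, two-sided, R 4.3.3), Benjamini-Hochberg adjusted over all tested genes. The fit was tested on simulated data with planted changes larger than that of any synthetase. How often changes of the synthetases' size are called was not tested. No detection calls or scan dates were used here, and 3 arrays per group limit the precision. The labels call the replicates biological without saying more. Limma p-values therefore set each group difference against the variation among these cultures, moderated over all tested genes.

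The members, lists and rules were chosen with earlier results of these data known, so lists are described by counts and medians without a test of their own. All 36 members are named; of every other list, the 3 genes with the smallest unadjusted p are named, and others named (Aimp1, Pet112l, Eif2ak4, Gcn1l1 and Atf4) were chosen for their role after values were seen. Per-array pair differences were tested by exact permutation over the 20 splits of 3 against 3. In RefSeq (GRCm38.p6) Hars2 is also an older name of Dtd1, Vars2 of Vars, Lars of 4930503L19Rik and Farsa of Farsb, each of which has probe sets under its own symbol. Mars is now Mars1. Promoters are RefSeq's, oriented along the gene.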

Additional observations from a re-analysis of the deposited data

How the results depend on the processing

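The shift of the cytosolic against the mitochondrial mean is a plain difference of means over all measured members. The replicate block, centring, the filters, the intensity trend and array weights cannot change it, so they do not test it. In the other alternatives it kept its direction, from 0.12 to 0.19. Counts of calls moved more, as did the share of all tested genes that rose, from 4.64% (insulin 2 left out) to 18.2% (array weights). Cytosolic members that rose, 8 as reported, numbered 13 with an intensity trend and robust prior, 15 with array weights and 2 with the brightest probe set; leaving out 1 array gave 2 to 9. Mitochondrial members that rose, 2 as reported, numbered 4 with array weights and 1 with the brightest probe set or the brighter probe sets (at or above the gene's median brightness); leaving out 1 array gave 0 to 2. Nars2 was called lower with array weights and with the brightest probe set. Over all genes 2274 calls became 5007 with array weights, 3436 with the mean of the probe sets and 1046 to 2446 with 1 array left out. The number of probe sets called, 8410 as reported, was 2364 with the replicate block, 2738 with no filter, 13807 with the trend, 30573 with array weights and 555 to 6216 with 1 array left out. The cause was not tested. A bound of 1.2-fold, chosen after seeing the data, left 8 cytosolic and 2 mitochondrial calls, and 2098 over all genes.

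The replicate numbers were not taken to pair the cultures, since the labels do not say that a number marks a shared batch. Same-number deviations correlated at 0.025, 0.19 and -3.6e-04. Without different-number correlations beside them, these values cannot settle whether the cultures were paired. With the replicate block 7 cytosolic and 2 mitochondrial members and 1970 genes were called. Farsb lost its call (limma adjusted p = 0.0524) and Aarsd1 gained one (0.0416); no other named gene changed its call.

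Signs turned for small estimates. Repeated quantile normalization gave -0.0032 for Hars2 and -0.018 for Tars2, and centring -0.016 for Tars2. Array weights gave -0.0034 for Aars2, 0.042 for Fars2, -0.012 for Pars2, -0.0096 for Vars2 and -0.014 for Aimp1. The mean of probe sets gave 0.014 for Iars2, 0.021 for Nars2, 0.11 for Cd68, -0.023 for Rars less Rars2 and 0.26 for Wars less Wars2. The brightest probe set gave -0.0050 for Mars, -0.0021 for Qars, -1.93e-04 for Sars, -0.056 for Hars2, 0.091 for Iars2, -0.071 for Pars2, -0.030 for Wars2, -0.026 for Yars2, -0.050 for Aimp1 and -0.0089 for Pecam1. For pair differences it gave -0.064 for Eprs less Ears2, -0.0018 for Iars less Iars2 and 0.37 for Wars less Wars2. The brighter probe sets gave -0.031 for Kars, -0.028 for Aars2, -0.087 for Ears2, 0.016 for Fars2, -0.014 for Hars2, -0.071 for Pars2, -0.013 for Pet112l and 0.077 for Cd68.

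With 1 array left out, the sign also turned in these ranges: Iars -5.6e-04 to 0.15, Qars -0.0037 to 0.081, Fars2 -0.058 to 0.040, Hars2 -0.046 to 0.16, Iars2 -0.065 to 0.0029, Mars2 -0.061 to 0.011, Nars2 -0.27 to 0.011, Pars2 -0.0077 to 0.062, Tars2 -0.026 to 0.026, Aimp1 -0.0059 to 0.073, Pet112l -0.020 to 0.20, Gcn1l1 -0.0050 to 0.11 and Pecam1 -0.041 to 0.18.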

Other observations

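Translation factors use the charged tRNAs. Of 11 cytosolic elongation and termination genes none passed by limma, and the median change was 0.11. An unadjusted limma p under 0.05 was seen in 4 of the 11, and in 4272 of all 14291 tested genes. Eef1g, a subunit of elongation factor 1, had 0.29 ± 0.09 (SE; limma adjusted p = 0.0642), the ribosome recycling factor Abce1 0.21 ± 0.07 and the release factor Gspt1 0.16 ± 0.06. Of 11 mitochondrial translation factors 1 rose (9.09%, against 9.56% of all tested genes), with a median of 0.069: Tsfm, the exchange factor for the mitochondrial EF-Tu, rose by 0.26 ± 0.06 (limma adjusted p = 0.0308). Gfm1, a mitochondrial elongation factor G, had 0.23 ± 0.07 and Mtrf1l, a release factor, 0.32 ± 0.14, neither of which passed.

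Markers of undifferentiated myoblasts went both ways, 3 of 9 rising and 2 falling, against 9.56% and 6.35% of all tested genes. Id3, an inhibitor of myogenic factors, fell by 1.13, Heyl, a Notch target, fell by 0.44, and Cd34 rose by 0.55. Among proliferation markers the mitotic kinase Plk1 rose by 0.66 and the replication factors Mcm3 and Mcm5 by 0.76 and 0.66. Among myotube markers Actn2, Myl1 and Ckm fell by 0.53, 0.39 and 0.30. Of 4 tested markers of other cell types none was called by limma, where the shares over all tested genes are those just given. An unadjusted limma p under 0.05 was seen in 0 of the 4, and in 4272 of all 14291 tested genes. Krt8, Cd68 and Pecam1 had -0.13, -0.028 and 0.047.

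One probe set listed under both Aars and Exosc6 was left out of the gene values. It was at 9.00, 9.14 and 8.88 in controls and at 8.79, 8.94 and 8.89 with insulin, a change of -0.13 while Aars rose.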
